A study of Mus musculus with 6 samples.

Results

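The proteasome is the large protease of the cytosol and nucleus, and its subunit genes were examined here in livers of conditional Keap1 knockout mice. Members were the genes whose only symbol in the array platform's annotation was Psma1 to Psma7, Psmb1 to Psmb10, Psmc1 to Psmc6, Psmd1 to Psmd14 or Psme1 to Psme4. Of these 41 names 40 had a probe set of their own, among 18193 genes on the array that did, and all 40 were among the 13027 genes bright enough to be tested. Psme2 had only a probe set annotated to both Psme2 and Psme2b, and was not counted.

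The study hybridised RNA from the livers of 6 male mice, each 9 weeks old, with 1 Affymetrix array per mouse. The 3 knockouts were Alb-Cre::Keap1(flox/-), with a floxed allele opposite a null allele, and the 3 genetic controls were Alb-Cre:Keap1(flox/+), with the same Cre and a floxed allele opposite a wild-type one. All 6 mice, controls included, carried Cre under the albumin promoter, which is active in hepatocytes, and received only vehicle (10% DMSO, 10% Cremophor-EL and 80% PBS). The null allele does not depend on Cre, so the other liver cells of the knockouts lack 1 copy of Keap1. By the same genotypes, control hepatocytes in which Cre has acted keep only 1 copy, the wild-type one. Mice are called by the numbers of the labels, knockouts 3, 4 and 5 and controls 1, 2 and 3, which do not pair mice across groups. Values are linear array signals scaled by the authors to a shared average, and differences are knockout minus control in log2(signal + 16), each with its standard error from limma. A gene is said to have risen or fallen if its limma p-value, adjusted by Benjamini-Hochberg over all genes tested, was under 0.05.

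The core of the proteasome is a barrel of outer alpha and inner beta rings. The beta subunits Psmb5, Psmb6 and Psmb7 cut proteins, with chymotrypsin-like, caspase-like and trypsin-like activity. In cells exposed to interferon they are replaced in new particles by Psmb8, Psmb9 and Psmb10 respectively, which gives the immunoproteasome and favours peptides that class I histocompatibility molecules present. A cap of ATPases (Psmc genes) and other subunits (Psmd genes) recognises and unfolds ubiquitin-tagged proteins, while the Psme genes encode alternative activators. KEAP1 marks the transcription factor NRF2 for destruction by this machine, and NRF2 and its relative NRF1, encoded by Nfe2l1, are both known to act on proteasome genes through antioxidant response elements.

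Keap1 was lower in the knockouts, as a check of the labels. Its brighter probe set had signals of 326, 151 and 214 in knockouts 3, 4 and 5 against 786, 843 and 699.8 in the controls, without overlap. The mean was 29.7% of that of the controls (log2 difference -1.74, standard error 0.24, limma adjusted p = 0.0103 over all probe sets), while a second, dimmer probe set stood at 62.5% and did not pass (adjusted p = 0.223). The labels do not place either Keap1 probe set relative to the deletion. Over the 27022 probe sets tested (not independent of each other) arrays correlated at 0.967 to 0.973 within groups and 0.956 to 0.962 between them, and no array stood apart. Hepatocyte markers were bright in all 6 livers, with all 8 listed genes tested and a summed signal of 178542 to 199533 in the knockouts and 159001 to 181946 in the controls. Of the 8 genes 0 passed in limma, with 1, Hnf4a (0.41), at an unadjusted p under 0.05. Above the controls lay 6 of them (median difference 0.15), 5 without overlap, where 10.3% of all genes tested were higher without overlap. RNA of whole liver was measured, so fewer cells of a type and less RNA per cell cannot be told apart.

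Most proteasome subunits differed little between the groups, and 3 of the 40 passed the threshold, where 1.98% of all genes tested did. Psmb5, the chymotrypsin-like subunit, and Psmd5, a chaperone that helps assemble the base of the cap, rose (1.04% of all genes did). Psmb9, the inducible counterpart of Psmb6, fell (0.944% of all genes did). The other 34 standard subunits lay between -0.24 (Psmc4) and 0.25 (Psmd8), and 0 of them passed in limma, with 2 at an unadjusted p under 0.05, Psma7 and Psmd8. In all 5 of the 40 members had such an unadjusted p, against 15.2% of all genes tested. For 33 of these 34 the 95% interval of the difference lay within 1.5-fold in either direction, the exception being Psme3 (-0.59 to 0.12). The groups did not overlap in 12 of the 40 members, 10 higher and 2 lower (Psmb9 and Psmc5) in the knockouts, against 21.3% of all genes tested (10.3% higher and 10.9% lower).

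**Figure D1:**
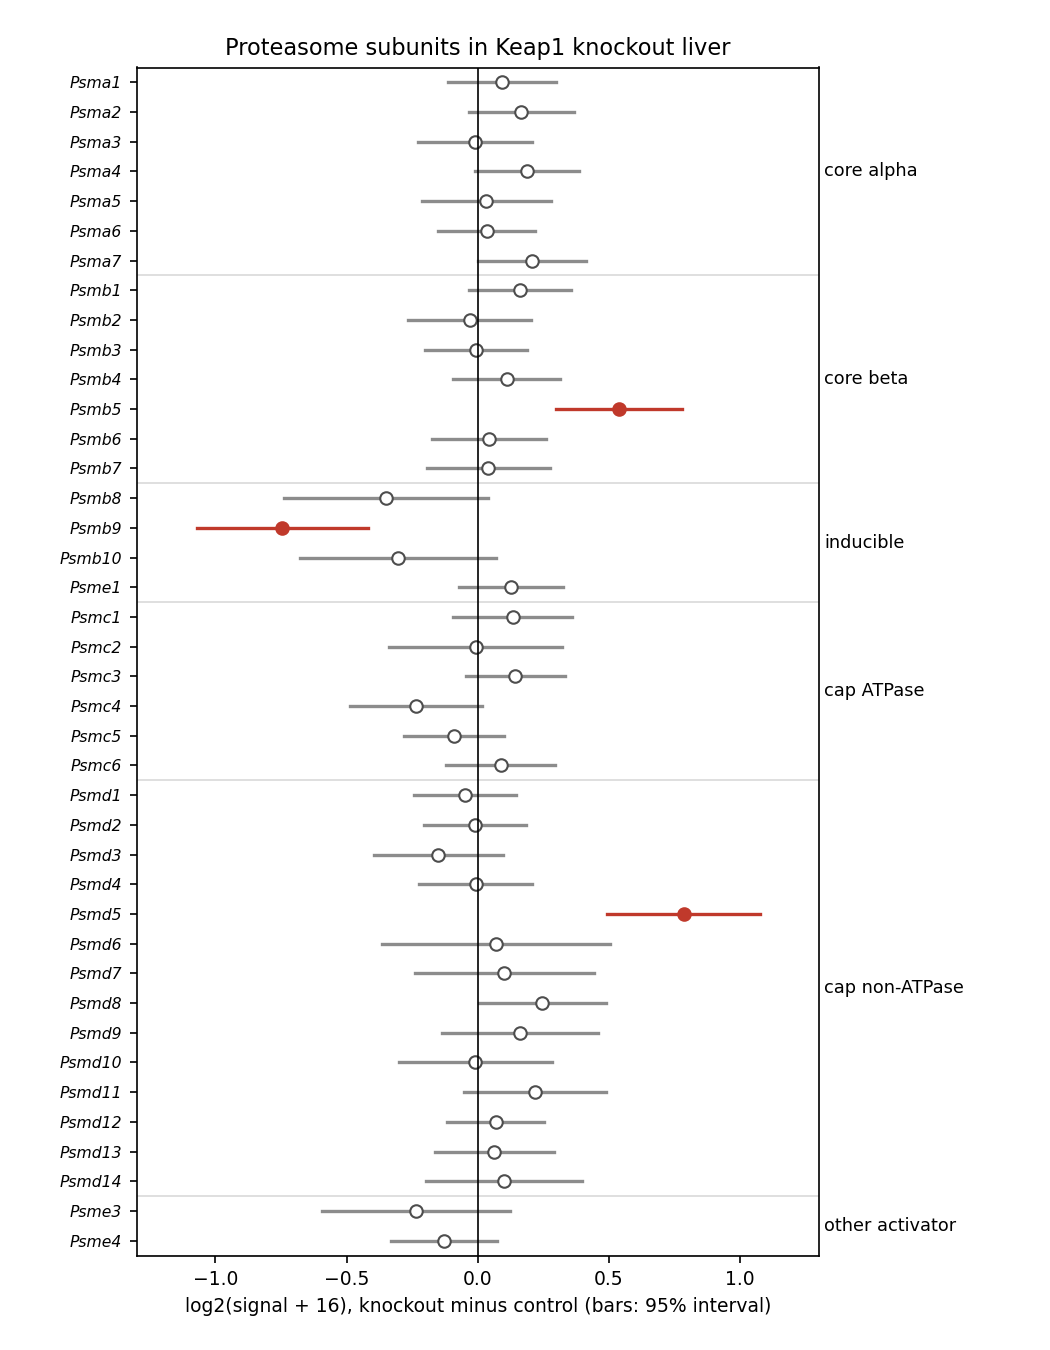
Difference in log2(signal + 16) between 3 knockout and 3 control livers for each of the 40 proteasome subunit genes, by class, with its 95% interval from limma. Filled red points passed the threshold: Psmb5 at 0.54, Psmd5 at 0.78 and Psmb9 at -0.74, while the other 37 points, in grey, lie between -0.35 (Psmb8) and 0.25 (Psmd8).

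The 36 standard subunits, all but Psmb8 to Psmb10, Psme1 and Psme2, had a median difference of 0.066, with 23 of them above the controls, beside a median of -0.017 over all genes tested. That median followed the scaling of the arrays. It was 0.16 after each array was centred on its median and -0.097 after scaling on the hybridisation controls, when 7 of 36 lay above the controls and the median of all genes moved by -0.16. Relative to the median gene the standard subunits stood 0.083 higher as deposited and 0.077 higher after that scaling, but 0.012 after quantile normalization. The members' median within-group SD was 0.101 on the log2 scale, against 0.150 for the 6386 genes tested whose mean log2 signal lay in the same range. These genes were not matched to the members for signal within that range, so this difference in spread cannot be told apart from one in brightness.

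Of the 7 alpha subunits, which form the gated outer rings, 0 passed in limma, and 1, Psma7, had an unadjusted p under 0.05. Their differences ran from -0.011 for Psma3 to 0.21 for Psma7, with a median of 0.093, which was -0.071 after scaling on the hybridisation controls. Psma7 had signals of 4791, 4377 and 4211 in the knockouts and 3700.3, 3968 and 3914 in the controls. Its knockouts all lay above its controls, and so did those of Psma2 and Psma4, but by amounts that did not pass (adjusted p = 0.328, 0.417 and 0.351 in limma). A second probe set of Psma7 differed by -0.0016, and the mean over its probe sets by 0.10. Psma1 and Psma5 differed by 0.093 and 0.033. Psma6 was the steadiest alpha subunit, with 7289.7 ± 77.7 for knockouts against 7121 ± 225 for controls (SD, n = 3 each).

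Among the standard beta subunits, Psmb5 alone passed. Its signals were 9017, 8323 and 7578 in the knockouts and 5142, 6114 and 5890.0 in the controls. Every knockout lay above every control, with knockout 5 the lowest of its group and control 2 the highest of its own. The means were 8306 ± 719.8 and 5715 ± 509 (SD, n = 3 each), 1.45-fold higher in the knockouts (log2 difference 0.54, standard error 0.11, limma adjusted p = 0.0416). The call was close to the threshold and was lost without any 1 of the 6 arrays, with adjusted p-values from 0.058 without knockout 5 to 0.166 without knockout 3. It was also lost with quantile normalization, cyclic loess, median centring, scaling on the hybridisation controls, no filter and no variance trend (adjusted p = 0.0574, 0.0594, 0.0902, 0.144, 0.063 and 0.143), while the difference stayed between 0.37 and 0.63.

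The other catalytic subunits of the standard core did not pass. Psmb6 had signals of 4452, 3976 and 3798 in the knockouts and 3785, 3922 and 4135 in the controls, which overlapped (difference 0.044, 95% interval -0.17 to 0.26). Psmb7 had signals of 14074, 13299.6 and 11574 in the knockouts and 12866, 13181 and 11739.6 in the controls, which also overlapped (0.041, -0.19 to 0.28). Of the structural beta subunits, Psmb1, Psmb2, Psmb3 and Psmb4 differed by 0.16, -0.031, -0.0072 and 0.11 without passing, and in Psmb1 the knockouts lay above the controls without overlap, unlike in a dimmer probe set of the same gene (-0.48). The median of the 7 standard beta subunits was 0.044, and -0.12 after scaling on the hybridisation controls. Set against the median of the other 35 standard subunits on the same array, which removes any scaling of whole arrays, Psmb5 stood 0.83, 0.82 and 0.70 in the knockouts and 0.16, 0.35 and 0.43 in the controls on the log2 scale. That is 1.39-fold higher in the knockouts, without overlap, in a measure chosen after the values were seen and therefore given with no test.

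The inducible core subunits had lower means in the knockouts, and 1 of the 3, Psmb9, passed. Psmb9 had signals of 339, 312 and 416 in the knockouts and 617, 615 and 576 in the controls. The 3 control values lay close together, and all 3 knockouts were below them, with knockout 5 the nearest. Psmb9 fell 1.68-fold, from 603 ± 22.8 to 356 ± 53.8 (SD, n = 3 each), with a log2 difference of -0.74, a standard error of 0.14 and a limma adjusted p of 0.0373. The call held without knockout 5 (adjusted p = 0.0422) and was lost without each other array, from 0.0784 without control 3 to 0.146 without knockout 3, and with median centring, no filter and no variance trend (0.0598, 0.0608 and 0.0824).

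Psmb8, the counterpart of Psmb5, had signals of 578, 589.9 and 719 in the knockouts and 1023, 744 and 678 in the controls. Control 1 was the highest of all, and knockout 5 lay above control 3, so the groups overlapped (-0.35, 95% interval -0.74 to 0.038, adjusted p = 0.381). Psmb10, the counterpart of Psmb7, had signals of 732, 828 and 919 in the knockouts and 1221, 1075 and 809 in the controls. Here too control 1 was the highest and the groups overlapped (-0.31, -0.68 to 0.068, adjusted p = 0.425). Without control 1 the differences were -0.18 for Psmb8 and -0.18 for Psmb10. Both stayed below 0 under all 20 alternative settings, between -0.51 and -0.18 for Psmb8 and between -0.47 and -0.18 for Psmb10, without a call in any.

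**Figure D2:**
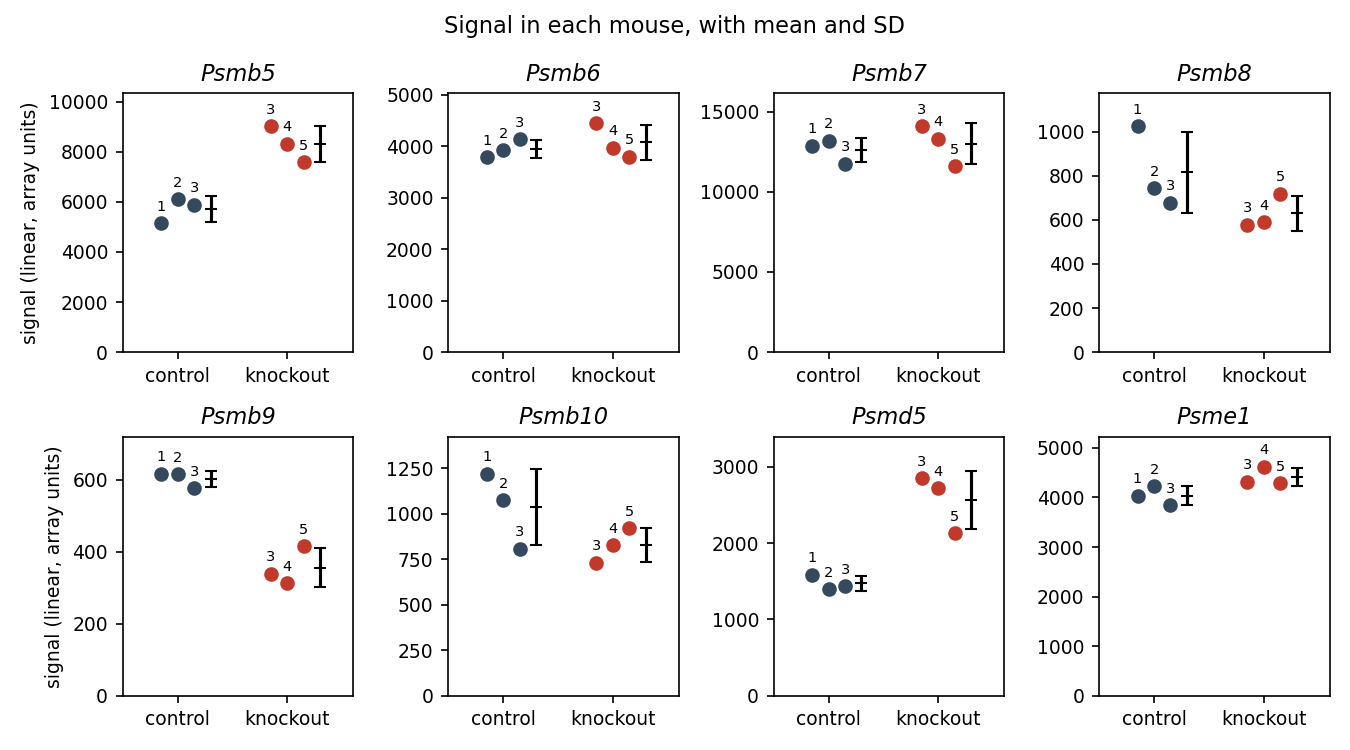
Linear array signal of 8 subunits in each mouse, controls in blue and knockouts in red, numbered as in the labels, with the mean and SD of each group beside the points and axes from 0. The groups separate for Psmb5, Psmb9 and Psmd5 and narrowly for Psme1, and overlap for Psmb6, Psmb7, Psmb8 and Psmb10.

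Each inducible subunit was also compared with the standard subunit it replaces on the same array, which cancels any factor that scales a whole array. The level of such a difference depends on how well each probe set binds, so only its change between groups was read. Psmb8 minus Psmb5 was -3.93, -3.78 and -3.37 in the knockouts and -2.31, -3.01 and -3.09 in the controls. Psmb9 minus Psmb6 was -3.65, -3.61 and -3.14 in the knockouts and -2.59, -2.64 and -2.81 in the controls. In both pairs every knockout lay below every control. The shift was -0.89 (standard error 0.30) for Psmb8 minus Psmb5, or 1.85-fold, and -0.79 (standard error 0.18) for Psmb9 minus Psmb6, or 1.73-fold. Psmb10 minus Psmb7 overlapped between groups, at -4.24, -3.98 and -3.63 against -3.38, -3.60 and -3.83, with a shift of -0.35 (standard error 0.22). In exact two-sided permutation tests over mice the 3 pairs gave p = 0.1, 0.1 and 0.2 (0.15, 0.15 and 0.2 adjusted over the 3), and 0.1 is the smallest p that 3 mice against 3 allow. In the first pair Psmb8 differed by -0.35 and Psmb5 by 0.54, and in the second Psmb9 by -0.74 and Psmb6 by 0.044.

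**Figure D3:**
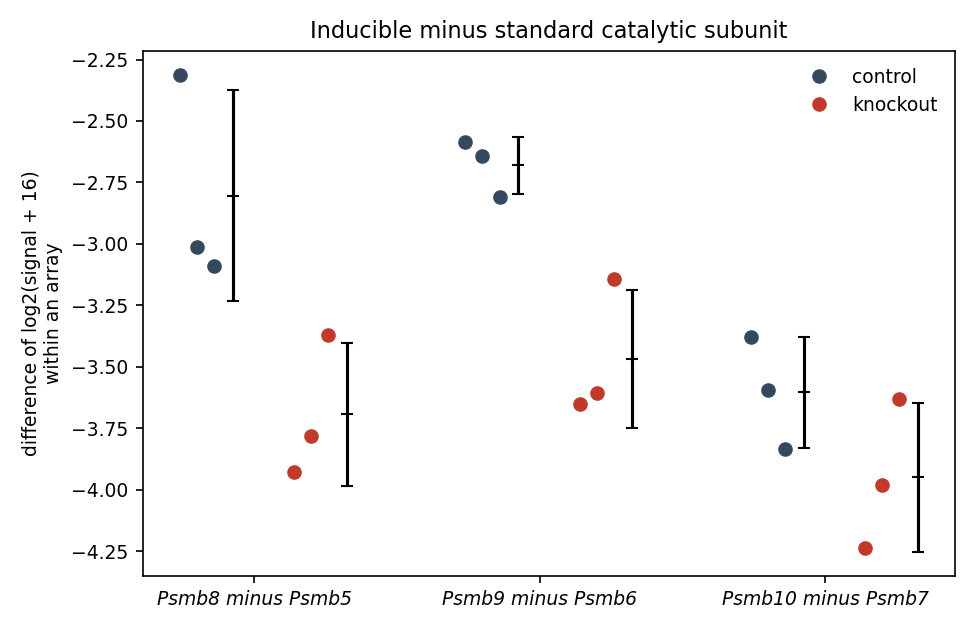
Inducible minus standard catalytic subunit, in log2(signal + 16) within each array, for the 3 pairs, with control mice in blue, knockouts in red and the mean and SD of each group beside the points. Knockouts lie below controls without overlap for Psmb8 minus Psmb5 and Psmb9 minus Psmb6, and overlap them for Psmb10 minus Psmb7.

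Promoter windows of RefSeq genes (GRCm38.p6, 250 bases before to 50 after the start) were available for 35 of the 41 gene names, in 38 windows. They were searched on both strands for TGACNNNGC, the core of the antioxidant response element, for GAAANNGAA, a part of the interferon-stimulated response element, and for TTCNNNGAA, the core of the gamma-activated site, which reads alike on both strands, and matches of different motifs were allowed to overlap. The first was in 6 of the 38 windows (15.8%) and in 12.4% of all 32851 windows. The second was in 6 (15.8%) against 8.56% of all windows, and the third in 2 (5.26%) against 8.3%. The windows of the 3 genes that passed are printed with those of Psmb6 and Psmb8, which complete the pairs with Psmb9 and Psmb5, each 5′ to 3′ in the gene's direction with matches in capitals.
Psmb5, chr14:54617946-54618245, minus strand: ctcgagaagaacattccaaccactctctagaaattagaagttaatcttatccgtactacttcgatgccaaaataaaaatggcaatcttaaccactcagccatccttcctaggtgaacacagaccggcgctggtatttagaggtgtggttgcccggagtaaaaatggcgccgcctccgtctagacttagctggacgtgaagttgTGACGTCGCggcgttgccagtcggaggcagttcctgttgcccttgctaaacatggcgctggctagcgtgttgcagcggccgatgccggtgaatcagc
Psmb6, chr11:70525107-70525406, plus strand: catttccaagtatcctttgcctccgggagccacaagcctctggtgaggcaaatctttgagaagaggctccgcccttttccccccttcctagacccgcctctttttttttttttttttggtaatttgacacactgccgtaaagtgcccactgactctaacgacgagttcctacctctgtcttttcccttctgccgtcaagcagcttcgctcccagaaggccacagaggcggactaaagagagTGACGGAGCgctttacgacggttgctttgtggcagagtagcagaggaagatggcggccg
Psmb8, chr17:34197945-34198244, plus strand: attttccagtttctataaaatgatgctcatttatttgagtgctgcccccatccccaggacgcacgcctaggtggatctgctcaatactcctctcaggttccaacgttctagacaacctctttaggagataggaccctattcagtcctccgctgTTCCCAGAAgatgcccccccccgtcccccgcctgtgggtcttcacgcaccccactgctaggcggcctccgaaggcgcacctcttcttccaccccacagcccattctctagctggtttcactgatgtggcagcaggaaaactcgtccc
Psmb9, chr17:34187281-34187580, minus strand: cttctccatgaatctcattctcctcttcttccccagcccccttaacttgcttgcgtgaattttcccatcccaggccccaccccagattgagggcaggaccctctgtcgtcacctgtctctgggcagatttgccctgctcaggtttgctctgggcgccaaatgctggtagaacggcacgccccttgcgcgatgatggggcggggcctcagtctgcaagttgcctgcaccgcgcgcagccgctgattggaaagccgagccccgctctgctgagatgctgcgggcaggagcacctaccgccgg
Psmd5, chr2:34870913-34871212, minus strand: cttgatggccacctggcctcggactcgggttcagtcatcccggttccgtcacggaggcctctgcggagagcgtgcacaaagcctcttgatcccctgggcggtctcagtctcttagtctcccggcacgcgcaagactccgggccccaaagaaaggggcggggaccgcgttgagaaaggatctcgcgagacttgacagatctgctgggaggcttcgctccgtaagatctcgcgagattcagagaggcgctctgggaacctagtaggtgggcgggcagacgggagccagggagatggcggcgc
Psmb5 held the antioxidant response element core 47 bases before the start and Psmb6 held it 9 bases before. The other windows with it belonged to Psmc6, Psmd9, Psmd12 and Psme4. Psmb8 held the gamma-activated site core 97 bases before its start, and Psmd2 was the only other member with that motif. The interferon-stimulated part was in windows of Psmb3, Psmb4, Psmc2, Psmd4, Psmd9 and Psme1, none of them an inducible core subunit. Psmb9 and Psmd5 held none of these 3 patterns in this window. Psmb9 lies in the histocompatibility complex beside Tap1, and the windows put their starts 226 bases apart on opposite strands, while Psmb8 lies between Tap1 and Tap2 in the RefSeq order of genes. A match is a description of letters, and binding was not measured here.

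In the ATPase ring of the cap, which unfolds substrates, 0 of 6 Psmc genes passed in limma and 0 had an unadjusted p under 0.05. They lay 3 above and 3 below the controls, with a median of 0.040 that was -0.12 after scaling on the hybridisation controls and -0.030 after quantile normalization. The differences ran from -0.24 for Psmc4 to 0.14 for Psmc3. Psmc3 had signals of 4585, 4701 and 4680.1 in the knockouts and 4072, 4208 and 4365 in the controls, with all knockouts above all controls (0.14, adjusted p = 0.455). Psmc5 lay the other way, at 3173, 3044 and 2992 in the knockouts and 3279, 3307 and 3218 in the controls, again without overlap but by -0.090 only (adjusted p = 0.663). Psmc4 overlapped, at 3929.8, 3748 and 4571 in the knockouts and 4382, 4805 and 5231 in the controls, and its second probe set, also without a call, differed by -0.013. Psmc1, Psmc2 and Psmc6 differed by 0.13, -0.0069 and 0.088. Further probe sets of Psmc2 differed by 0.044 and 0.57 and those of Psmc6 by -0.19 and -0.21, all without a call.

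Of the 14 Psmd genes, the remaining cap subunits and their chaperones, 1 passed, Psmd5. Its signals were 2846, 2718 and 2126 in the knockouts and 1586, 1393 and 1436 in the controls. Knockouts 3 and 4 were close to each other and knockout 5 was the lowest of its group, still above the highest control. Psmd5 rose 1.72-fold, from 1472 ± 101 to 2563 ± 384 (SD, n = 3 each), with a log2 difference of 0.78, a standard error of 0.13 and a limma adjusted p of 0.021. Among the 40 members it had the largest difference and the lowest p. The call held without knockout 5 or control 1 (adjusted p = 0.0152 and 0.0483), and was lost without knockouts 3 and 4, controls 2 and 3 (0.0866, 0.0636, 0.0738 and 0.0608, 1 array left out at a time) and without the variance trend (0.0862).

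The other chaperones that act on the same base did not pass. Psmd9 had signals of 1448, 1364 and 1732 in the knockouts and 1221, 1533 and 1304 in the controls, which overlapped (0.16, 95% interval -0.14 to 0.46). Psmd10, also known as gankyrin, had signals of 555, 559 and 608 in the knockouts and 509, 627 and 602 in the controls and differed by -0.0089 (-0.30 to 0.28). Against the median of the other 35 standard subunits on its array, a measure chosen after the values were seen and not tested, Psmd5 was 1.66-fold higher in the knockouts without overlap.

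The remaining Psmd genes, which build the base and lid of the cap, did not pass. The scaffolds Psmd1 and Psmd2 differed by -0.048 and -0.0092, the ubiquitin receptor Psmd4 by -0.0085 and the deubiquitinase Psmd14 by 0.099 (-0.20 to 0.40). The lid subunit Psmd8 had signals of 5846, 5034 and 4567 in the knockouts and 4398, 4179 and 4374 in the controls. Its groups did not overlap, though knockout 3 stood well above the others (0.25, adjusted p = 0.319). Psmd12, also of the lid, was the tightest of the class, at 5219 ± 48.8 and 4979.7 ± 176 (SD, n = 3 each), with a difference of 0.068. Psmd6 varied most among mice of a group, from 4637 in knockout 4 to 7377 in knockout 5, so its interval was the widest of the standard subunits (-0.36 to 0.50). Psmd3, Psmd7, Psmd11 and Psmd13 differed by -0.15, 0.10, 0.22 and 0.064.

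The activators encoded by Psme genes gave no call. Psme1, the interferon-inducible partner of Psme2, had signals of 4318, 4622 and 4289.6 in the knockouts and 4035, 4223 and 3844 in the controls. The knockouts lay narrowly above the controls, by 0.13 (95% interval -0.070 to 0.33, adjusted p = 0.534), a difference that turned to -0.035 after scaling on the hybridisation controls. The probe set annotated to Psme2 and Psme2b had signals of 1793, 2394 and 1903 in the knockouts and 2283, 2545 and 1843 in the controls, which overlapped (-0.13, adjusted p = 0.748 over all probe sets). Psme3, a nuclear activator, had signals of 809.9, 837 and 862 in the knockouts and 1063, 1175 and 769.9 in the controls, and Psme4, which is linked to histone degradation, had 4313, 3880.3 and 3928 in the knockouts and 4313, 4627 and 4320.4 in the controls. The groups overlapped in both, with differences of -0.24 and -0.13. A second probe set of Psme3 differed by 0.081. Further ones of Psme4 differed by 0.033 and 0.091, and dimmer ones by -0.070 and -0.44, all without a call.

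Further probe sets added no call. Among the 40 members 18 had 36 further probe sets bright enough to be tested, of which 0 passed in limma and 1, of Psmb1, had an unadjusted p under 0.05. That dimmer probe set of Psmb1 went the opposite way to the one used, at -0.48 (adjusted p = 0.236 over all probe sets) with all knockouts below all controls. In sign 19 of the 36 matched the probe set used. Psmb5, Psmd5 and Psmb9 each had 1 probe set on the array, so their differences rest on single probe sets.

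Genes that build or feed the proteasome gave no call either, beside 1.98% of all genes tested. Of 17 names on a list of assembly factors and partners 14 were tested, and 0 passed in limma, with 1, Psmf1, at an unadjusted p under 0.05. Psmf1, a proteasome inhibitor, differed by 0.26 (adjusted p = 0.296) and the assembly chaperone Psmg4 by -0.27 (0.365), the largest differences of that list. Pomp, the maturation factor of the core, had signals of 5675, 5793 and 4845 in the knockouts and 5926, 4832 and 5093 in the controls, which overlapped. Of 7 names for the route that activates NRF1, 5 were tested and 0 passed (0 at an unadjusted p under 0.05). Its largest differences were -0.082 for Sel1l and 0.081 for Vcp, an ATPase that extracts proteins from membranes. Nfe2l1 itself had signals of 864, 836 and 1424 in the knockouts and 907, 910.4 and 1101 in the controls, with knockout 5 above all others. Of 13 names for ubiquitin supply and shuttling 7 were tested and 0 passed in limma (3 at an unadjusted p under 0.05), with Ube2k, a ubiquitin-conjugating enzyme, the nearest at 0.53 (adjusted p = 0.0515), ahead of Ubqln2, a shuttle to the proteasome, at 0.45 (0.18).

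For comparison, most of the known NRF2 targets listed rose. Of 8 on the list 5 rose and 0 fell (1.04% of all genes rose), with a median difference of 0.97, beside 0.066 for the standard subunits. Nqo1, a quinone reductase, differed by 2.31, Srxn1 by 1.87, Txnrd1 by 1.25, Gclc by 1.17 and Gsr by 0.71. Gclm, the partner of Gclc in glutathione synthesis, differed by 0.10 (adjusted p = 0.72). Psmb5, at 0.54, and Psmd5, at 0.78, are on the same scale, and their differences from these genes were not tested. Knockout 5 was the lowest of the knockouts in Psmb5, Psmd5 and all 5 targets that rose, and the highest of the knockouts in Psmb8, Psmb9 and Psmb10. Knockout 5 was also the lowest of the knockouts in many members that did not pass. Among these were Psma1, Psma2, Psma3, Psma4, Psma7, Psmb1, Psmb6, Psmb7, Psmd8 and Psme1. In others, such as Psma5, Psmc1 and Psmd9, it was the highest, so its low place was not particular to the genes that rose. By its brighter probe set Keap1 was highest of the knockouts in knockout 3, at 326 against 214 in knockout 5. By the dimmer one it was highest in knockout 4, at 446 against 206 in knockout 5. Of the interferon genes that fell, described next, Irf9 and Usp18 were highest in knockout 5. Ifit1, Iigp1 and Irf7 were highest in knockout 4 and Cxcl10 in knockout 3. Under the other settings 4 to 6 of the 8 rose.

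Some genes of the interferon response fell. Of 21 names 18 were tested, 6 fell and 0 rose, and 17 lay below the controls, with a median difference of -0.77 (0.944% of all genes fell). Irf9, part of the factor that carries type I interferon signals, had signals of 581, 583 and 704 in the knockouts and 1334, 1589 and 1308 in the controls. Usp18 and Irf7, which restrain and amplify that response, differed by -1.06 and -0.88, and Ifit1, Iigp1 and Cxcl10 by -1.49, -1.08 and -0.81. Irf1, a known activator of Psmb9, differed by -0.20 without passing (adjusted p = 0.462). The number that fell was 3 without the variance trend or without control 1, 9 with array weights and 10 after scaling on the hybridisation controls. The list and its direction were known from earlier results of these data, so it is no independent evidence.

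Of 12 genes of class I antigen presentation 0 passed in limma. An unadjusted p under 0.05 was found for 3, Tap1 and Nlrc5 below the controls and B2m above them. Of the 12 genes 6 lay above and 6 below the controls, with a median difference of -0.031. The peptide transporter Tap1, which neighbours Psmb9, had signals of 458, 426 and 502 in the knockouts and 743, 680.2 and 669 in the controls. All knockouts lay below all controls (-0.58, adjusted p = 0.0542), a difference that passed after scaling on the hybridisation controls, with array weights, with the mean over probe sets and with the stricter filter (0.0217, 0.0347, 0.042 and 0.0424). Nlrc5, a transactivator of class I genes and of Psmb9, likewise did not overlap (-0.77, adjusted p = 0.0706) and passed after scaling on the hybridisation controls and with array weights (0.036 and 0.039). The presenting molecules themselves did not pass, with H2-K1 at 0.0039, H2-D1 at -0.065 and B2m at 0.24 (adjusted p = 0.294).

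**Figure D4:**
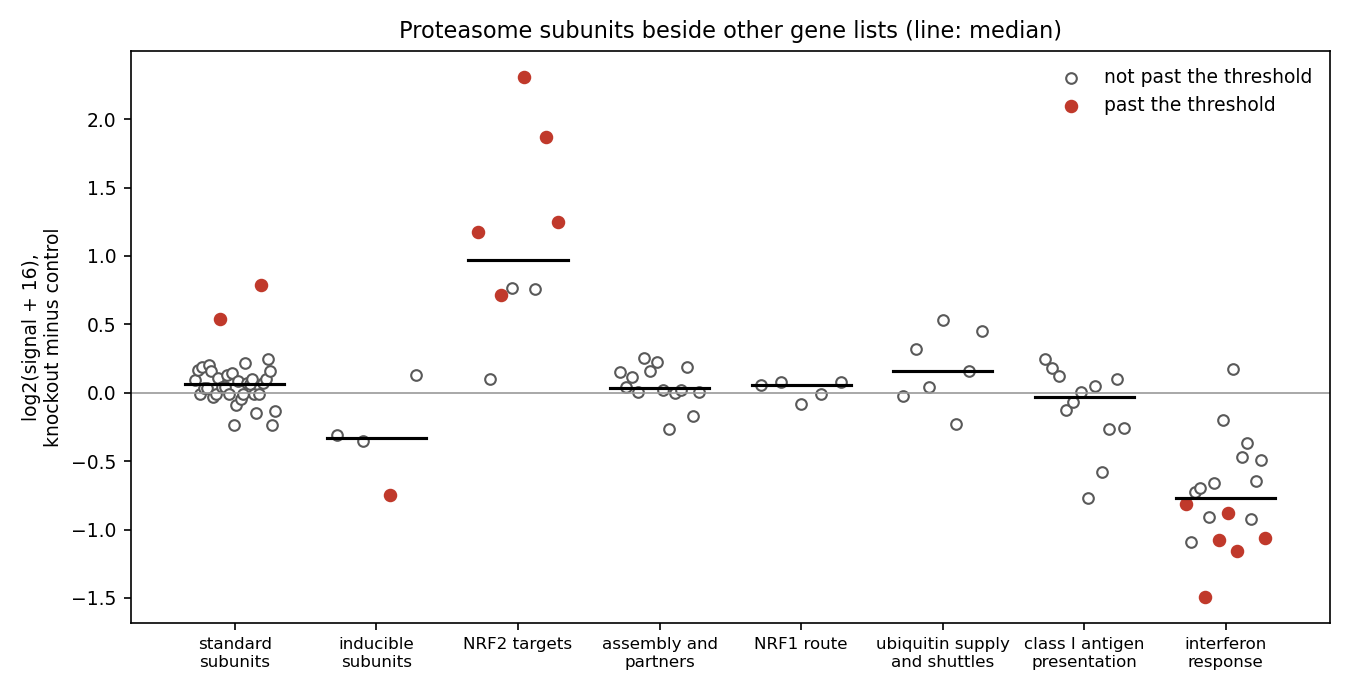
Difference in log2(signal + 16), knockout minus control, of each tested gene in the standard and inducible proteasome subunits and in 6 other lists, with red points past the threshold and a line at each median. The standard subunits cluster near 0 apart from Psmb5 and Psmd5, the NRF2 targets lie above, and the interferon genes lie below with a median of -0.77.

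Leukocytes carry immunoproteasome genes, so their markers are given beside the fall of Psmb9. Of 12 macrophage names 11 were tested, and their summed signal was 16176 to 20785 in the knockouts and 11699 to 20187 in the controls. Of 14 lymphoid names 12 had a probe set and 6 were tested, with sums of 1779.8 to 1905 and 1699 to 1798, and Cd2, Cd4 and Nkg7 had mean signals under 50. Of 6 neutrophil names 4 were tested, with sums of 563 to 998 and 636 to 928. In these 3 lists the groups overlapped and 0 genes passed in limma (2 macrophage, 0 lymphoid and 0 neutrophil genes at an unadjusted p under 0.05), with Marco, of Kupffer cells, the furthest at 1.40 (adjusted p = 0.111). The sums of 6 endothelial markers were higher in the knockouts, 5641 to 5878 against 5338 to 5565. That rested on Lyve1, whose mean signal was 946 against 384, while 4 of the 6 genes lay below the controls (median difference -0.016). The sums of 6 stellate cell markers were lower in the knockouts, 3216 to 3434 against 3832 to 4262. That rested mostly on Reln, with a mean signal of 1656 against 2059, and on Col3a1, with 524 against 830. The groups overlapped in Col3a1, which was highest in control 2. Of the 6 genes 4 lay below and 2 above the controls (median difference -0.093). In both lists 0 genes passed in limma, with 1 in each, Lyve1 (1.29) and Reln (-0.31), at an unadjusted p under 0.05. The part of these cells in the differences of Psmb9, Psmb5 and Psmd5 was not tested.

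**Figure D5:**
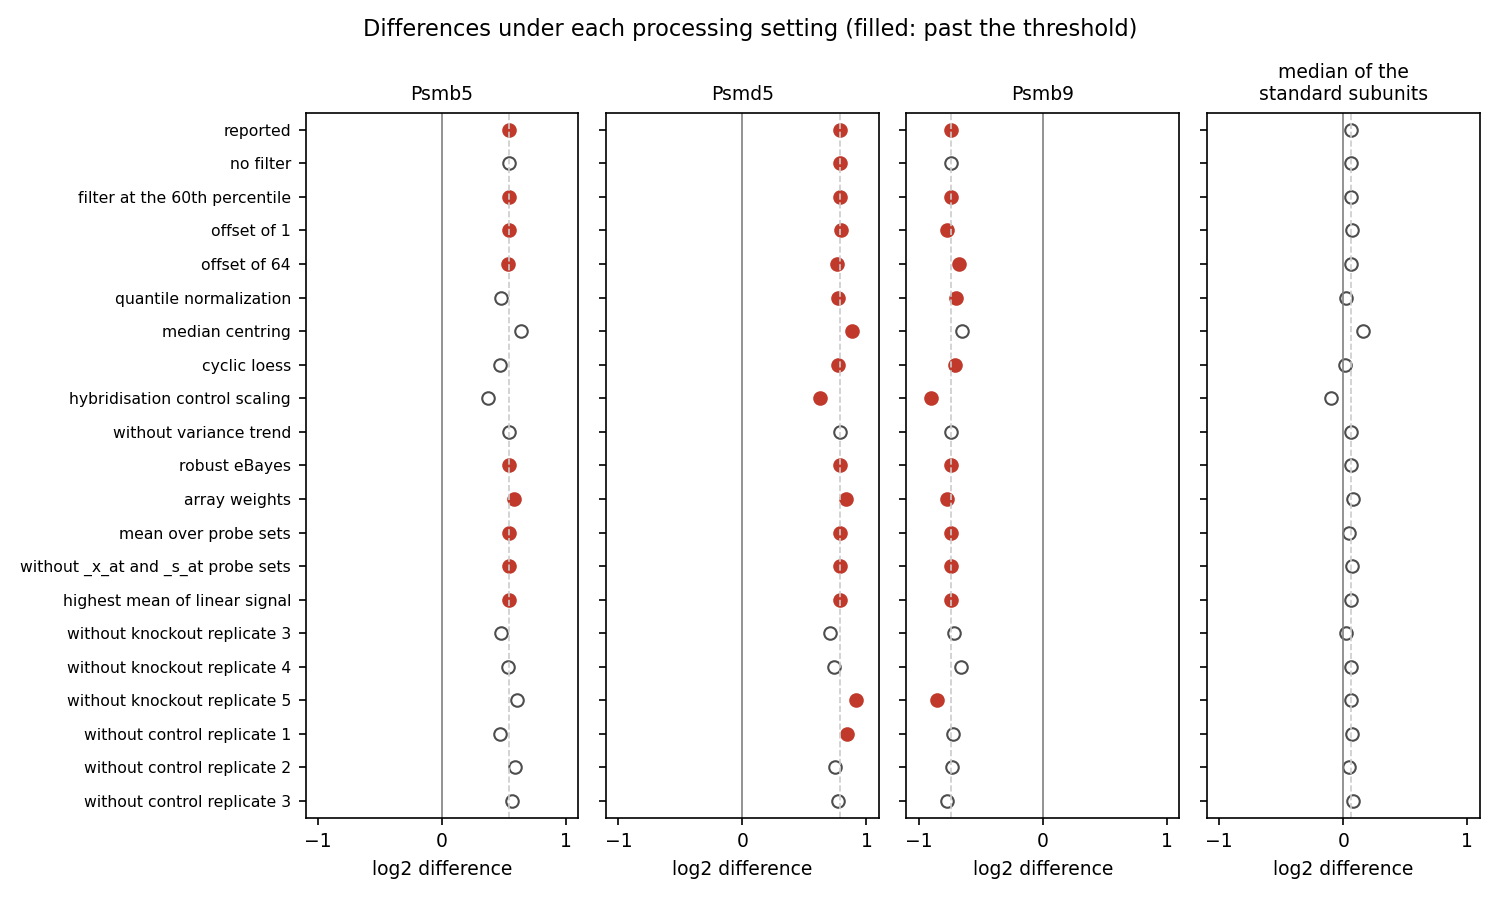
Log2 difference of Psmb5, Psmd5 and Psmb9, and the median of the 36 standard subunits, under the reported setting and each of 20 alternatives, with filled points past the threshold. Psmb5 and Psmd5 stay above 0 and Psmb9 below 0 throughout, while the calls come and go and the median of the standard subunits turns to -0.097 after scaling on the hybridisation controls.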

How the data were processed

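The deposited values are linear array intensities, 1 per probe set and array; how they were summarised is not given in the sources used. With 2% of probe sets trimmed from each end, every array averaged 500.0, so the authors' intensities had been scaled to a shared target, which hides any change in total RNA. Genes were named from the platform annotation, by the probe sets with 1 symbol (34945, while 932 had several and 9160 none). After log2(signal + 16), probe sets whose mean over the 6 arrays reached the 40th percentile were kept (27022), and each gene took its probe set with the highest mean. Knockouts and controls were then set against each other in two-sided moderated tests (limma 3.58.1, R 4.3.3), with the prior variance following the mean signal and p-values adjusted by Benjamini-Hochberg across the 13027 genes. The fit was also run on simulated data in which each gene's variance lay on a trend with its mean signal. That run does not bear on the calls made here. With arrays, their number limits the precision.

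All members were described, and of the 6 other pathway lists the genes past the threshold and the 2 with the largest difference. Others, markers of cell types included, were named after their values were seen (Pomp, Nfe2l1, Nfe2l2, Irf1, Gclm, H2-K1, H2-D1, B2m, Hnf4a, Marco, Lyve1, Reln and Col3a1). The members and lists were chosen with earlier results of these data known. Alternatives covered filter, offset, normalization, variance model, array weights, choice of probe set and leaving out each array.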

Additional observations from a re-analysis of the deposited data

How the results depend on the processing

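The number of members past the threshold was 3 as reported, 1 with no filter, 1 after median centring (Psmd5 in both) and 0 without the variance trend, and ran from 0 to 2 when 1 array was left out. It was 2 or 3 under the other 11 settings, 1 of which, the probe set with the highest linear signal, was added after the data were seen. The other pathway lists had 11 genes past the threshold, 7 without the variance trend, 18 with array weights and 7 to 12 with 1 array left out. The median of the standard subunits was 0.019 after quantile normalization, 0.017 after cyclic loess, 0.16 after median centring, -0.097 after scaling on the 18 hybridisation control probe sets, and 0.024 to 0.079 with 1 array left out. Psme1 turned to -0.035 after that scaling. The calls over all genes were 135 higher and 123 lower as reported, 137 and 74 after median centring and 85 and 270 after scaling on the hybridisation controls. The shifts of the 3 pairs kept their sign in all 14 settings tried, from -1.05 to -0.64, -0.95 to -0.69 and -0.50 to -0.20. On the forward strand alone the antioxidant response element core was in 3 windows and the interferon-stimulated part in 2. The causes were not tested. No paired analysis was possible because the groups share only the replicate number 3.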
